A study of Homo sapiens with 7 samples.

Results

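The mRNAs described here are those of immediate early genes, most of which encode transcription factors, and of MYC. The mRNAs are those of FOS, FOSB, FOSL1, JUN, JUNB, JUND, EGR1, IER2, IER3 and MYC. They were chosen by name, as short-lived mRNAs, with earlier results of these data known. Their probes were found through the accession that the scanner files give for each probe. All 10 genes were represented, by 11 of the 42405 gene probes on the array, among 19060 genes that could be named. IER3 had 2 probes and each of the others had 1. Every one of the 11 probes was well above background on all 7 arrays, and none was saturated.

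Single-colour Agilent arrays gave the gene expression of NCI-H520 cells, an established human line from a squamous cell carcinoma of the lung, to see which transcripts change when a deadenylase is silenced. Deadenylases shorten the poly(A) tail of mRNAs. All cells were transfected by cationic liposomes with 6 µg of a pLKO.1 plasmid, put under puromycin at 6 µg/mL from 12 h, and harvested at 72 h. The plasmid was either empty, or carried a non-target shRNA without homology to known genes, or an shRNA against PARN, CNOT6, CNOT6L, CNOT7 or NOC (nocturnin, gene symbol NOCT). There was 1 array per group, so no difference from a control has a replicate check, and untransfected cells are not analysed here. In the labels the CNOT6L shRNA has the target accession of NOC, so the labels leave its target uncertain.

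All arrays were on 1 slide. Row 1 of the slide held both controls with the PARN and CNOT6 shRNAs, and row 2 held CNOT6L, CNOT7 and NOC shRNA with no control, so that row and shRNA cannot be told apart for these 3. The NOC image was also extracted on another day. Between 82.0% and 91.5% of gene probes were above background per array, and the 75th percentile of signal lay between 1366 and 3986. Each targeted mRNA was lowest on its own array, at 45.8% of the control mean for PARN, 54.2% for CNOT7 and 63.0% for CNOT6L. NOCT was at 74.3% and CNOT6 at 89.6%, with CNOT6 only -0.21 and -0.11 from the controls. In log2 from the control mean, NOCT was at -0.43 on the NOC array, -0.36 on the CNOT7 array and -0.14 on the CNOT6L array. CNOT6L was at -0.67, -0.11 and -0.14 on the CNOT6L, CNOT7 and NOC arrays. Silencing below therefore names the shRNA used, and a loss of the target is not shown for each. Against the labelled cell type, all 4 epithelial markers (EPCAM, CDH1, KRT8 and KRT18) were above background on all arrays. Only 3 of 7 squamous and basal markers were (SOX2, KRT6A and PKP1). TP63, KRT5, KRT14 and DSG3 were above background on 2, 4, 1 and 1 of the 7 arrays. Of 3 lung adenocarcinoma markers 2 were above background on all arrays (NKX2-1 and NAPSA), as were 2 of 3 fibroblast markers. All 3 blood and all 3 endothelial markers were above background on all arrays too, so that this mark alone does not separate cell types here.

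Immediate early genes are transcribed within minutes of a growth factor or stress signal, without new protein synthesis, from promoters that are held ready by factors such as SRF and CREB. FOS proteins pair with JUN proteins to form AP-1, which binds DNA as a dimer, while MYC binds DNA together with MAX. Many of these mRNAs carry AU-rich elements in their 3′ ends, which recruit deadenylases, and their level reflects both synthesis and decay. An array of RNA at a single time does not separate the 2, nor fewer cells of a kind from less RNA per cell.

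Promoter sequence from RefSeq (GRCh38.p14) was at hand for 7 of the 10 genes: FOS, FOSB, JUN, JUNB, JUND, EGR1 and IER2. The last 150 bases before the start of transcription are shown for FOS, JUNB, JUND and IER2, the 4 genes whose values separated the slide rows, and for EGR1, whose values did not. Capitals mark TGACG on either strand, the core of the CREB binding site, and in EGR1 also the CArG box, the binding site of SRF.
FOS (chr14:75278678-75278827, plus strand): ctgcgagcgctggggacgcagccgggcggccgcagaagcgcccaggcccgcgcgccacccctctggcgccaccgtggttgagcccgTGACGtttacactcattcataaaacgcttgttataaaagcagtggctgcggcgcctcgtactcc
JUNB (chr19:12791336-12791485, plus strand): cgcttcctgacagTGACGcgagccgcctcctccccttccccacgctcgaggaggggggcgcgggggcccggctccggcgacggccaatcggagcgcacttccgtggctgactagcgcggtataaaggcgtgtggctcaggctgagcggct
JUND (chr19:18281623-18281772, minus strand): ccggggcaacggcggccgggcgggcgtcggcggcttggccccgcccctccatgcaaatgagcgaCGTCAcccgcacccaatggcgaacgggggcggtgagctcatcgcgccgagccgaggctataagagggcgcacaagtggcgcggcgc
IER2 (chr19:13150261-13150410, plus strand): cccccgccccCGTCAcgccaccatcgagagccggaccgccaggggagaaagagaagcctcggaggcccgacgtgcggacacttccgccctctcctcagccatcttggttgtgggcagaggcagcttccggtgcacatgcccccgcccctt
EGR1 (chr5:138465329-138465478, plus strand): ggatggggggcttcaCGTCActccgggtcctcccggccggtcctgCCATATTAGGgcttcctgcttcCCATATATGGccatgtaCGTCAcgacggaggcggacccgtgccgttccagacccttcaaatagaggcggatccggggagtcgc

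In the 250 bases before the start, TGACG was present in 7 of 7 genes, against 21.2% of the 35116 promoter windows in the table. The full palindrome TGACGTCA, which contains TGACG on both strands, was in JUND alone, 200 bases before the start, and in 1.65% of windows. Within these 250 bases a CArG box was in EGR1 alone, at 105 and 83 bases before the start, and in 1.16% of windows. Bases farther upstream were not searched, so a site there is not excluded for the other genes. TATAAA was in FOS, FOSB and JUNB, at 33, 30 and 31 bases before the start, and in 3763 of the windows. GGGCGG was in 5 of 7 genes and 42.6% of windows, and TGANTCA, the AP-1 site, in 0 of 7 and 6.57%. These matches describe the letters in the window, and the genes whose arrays separated by slide row shared TGACG with those that did not.

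Levels are given as log2 of the signal relative to the 75th percentile of the array, and are compared between arrays for 1 probe at a time. FOS, the founding AP-1 subunit, had values of 1.49 with empty vector, 1.44 with non-target shRNA, 1.38 with PARN shRNA, 1.80 with CNOT6 shRNA, 1.01 with CNOT6L shRNA, 0.98 with CNOT7 shRNA and 0.62 with NOC shRNA. The controls lay only 0.05 apart, and the 3 arrays of row 2 lay below all 4 of row 1. Upon NOC silencing FOS differed by -0.87 from empty vector and by -0.82 from non-target shRNA, at 55.5% of the control mean, which was the largest difference from the control mean among the 10 genes. Against the other arrays of row 2 the difference was -0.38. The printed spots of FOS agreed within an SD of 0.06 on each array.

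FOSB, a FOS paralogue that also pairs with JUN proteins, had values of -1.92 and -2.26 on the empty-vector and non-target arrays, -1.66 upon PARN, -1.68 upon CNOT6, -2.07 upon CNOT6L, -2.26 upon CNOT7 and -2.27 upon NOC silencing. PARN and CNOT6 shRNA lay above both controls, by 0.26 and 0.24 over empty vector and 0.61 and 0.58 over non-target shRNA, and the rows overlapped through the non-target array. FOSL1 encodes FRA1, an AP-1 subunit linked to invasive growth of epithelial tumours. Its values were -3.26 and -3.81 on the empty-vector and non-target arrays, then -3.10 upon PARN, -3.33 upon CNOT6, -4.14 upon CNOT6L, -4.04 upon CNOT7 and -3.81 upon NOC silencing. FOSL1 varied most of the 10 genes, with an SD of 0.41 over the arrays, and it also had the widest gap between the controls, 0.55. Its spots on the CNOT6 array disagreed, with an SD of 0.45, while empty vector lay with PARN shRNA and the non-target array with row 2.

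JUN, the main partner of FOS, had values of 1.61 with empty vector, 1.77 with non-target shRNA, 1.34 upon PARN, 1.81 upon CNOT6, 1.66 upon CNOT6L, 1.42 upon CNOT7 and 1.60 upon NOC silencing. The PARN array was the lowest, by -0.27 and -0.42 against the controls, and the rows overlapped. JUNB, which restrains JUN activity and is itself induced early, had values of -1.55, -1.12, -1.34 and -1.15 on the empty-vector, non-target, PARN and CNOT6 arrays. On the CNOT6L, CNOT7 and NOC arrays JUNB had values of -2.01, -2.02 and -1.89. The row 2 arrays thus lay within 0.13 of each other and below every array of row 1, at 62.5%, 62.2% and 68.0% of the control mean, although the controls themselves differed by 0.44. JUND, the JUN protein that is present in resting cells, had values of -1.07 and -0.75 in the controls, then -0.96 upon PARN, -1.13 upon CNOT6, -1.16 upon CNOT6L, -1.37 upon CNOT7 and -1.17 upon NOC silencing. Its row 2 values were also below those of row 1, but the nearest values of the rows, those of CNOT6 and CNOT6L shRNA, differed by less than the spots of the CNOT6 array.

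EGR1, a zinc finger factor induced through SRF, had values of 2.43 and 2.40 in the controls, 2.57 upon PARN, 2.73 upon CNOT6, 2.77 upon CNOT6L, 2.40 upon CNOT7 and 2.32 upon NOC silencing. CNOT6L shRNA, in row 2, was the highest and NOC shRNA, in the same row, the lowest, so EGR1 did not follow FOS across the slide. CNOT6 and CNOT6L shRNA exceeded the controls by 0.31 and 0.34 over empty vector, at 125% and 128% of the control mean.

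IER2, a nuclear protein of the early response whose probe was printed on 1 spot, had values of 5.74 and 5.75 in the controls, 5.87 upon PARN, 6.16 upon CNOT6, 5.41 upon CNOT6L, 5.30 upon CNOT7 and 5.31 upon NOC silencing. The controls agreed within 0.01, the row 1 shRNAs were above them and all of row 2 was below, at 79.1%, 73.4% and 74.2% of the control mean. The excess upon CNOT6 silencing, 0.41 over the control mean, became 0.04 with quantile normalization. IER3, a stress-induced protein that affects apoptosis, had values of 0.38 and 0.28 in the controls, 0.46 upon PARN, 0.98 upon CNOT6, -0.15 upon CNOT6L, 0.04 upon CNOT7 and 0.33 upon NOC silencing. CNOT6 shRNA stood highest, by 0.60 over empty vector and 0.69 over non-target shRNA. The further IER3 probe, on 1 spot, gave 0.57 and 0.69, so the probes gave like values on this array. Upon CNOT7 silencing the probes differed in size, at -0.29 and -0.51 against the control mean, and upon NOC silencing at 0.00 and -0.19.

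MYC, the growth-promoting factor that drives ribosome and nucleotide synthesis genes, had values of 3.10 with empty vector, 3.30 with non-target shRNA, 3.04 upon PARN, 3.08 upon CNOT6, 3.31 upon CNOT6L, 3.41 upon CNOT7 and 3.11 upon NOC silencing. It was the steadiest of the 10 genes, with an SD of 0.14 over the arrays, and its changes from the control mean lay between -0.16 and 0.22, while the controls differed by 0.20. Unlike FOS and JUNB, MYC was not low in row 2, whose highest value, upon CNOT7 silencing, exceeded all of row 1.

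**Figure D1:**
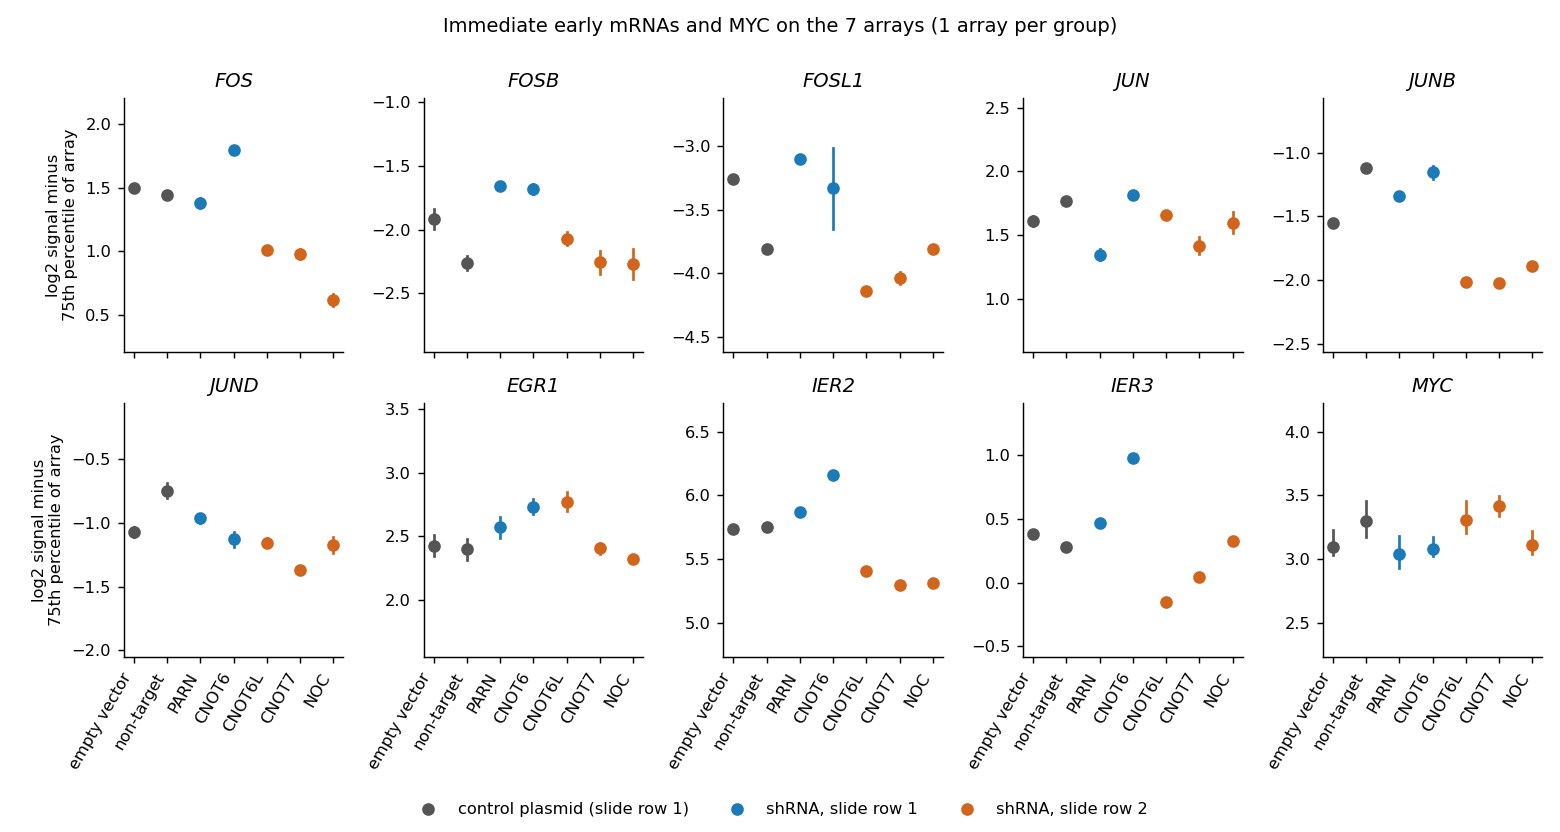
Each panel plots 1 gene, with the 7 arrays along the horizontal axis and log2 signal minus the 75th percentile of the array on the vertical axis, over the same span of 2 log2 units. Points are the mean of the spots of the probe and bars run from the lowest to the highest spot. The orange row 2 points lie below all others for FOS, JUNB, JUND and IER2, but not for JUN, EGR1 or MYC.

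Of the 10 genes, 0 were at least 2-fold higher or lower than both controls with any of the 5 shRNAs. Over all gene probes, the same rule called 0.363% higher and 0.446% lower upon PARN silencing, 0.422% and 0.299% upon CNOT6, 0.328% and 0.736% upon CNOT6L, 0.417% and 0.972% upon CNOT7, and 0.547% and 1.27% upon NOC silencing. At 1.5-fold, IER3 was higher upon CNOT6 silencing, where 3.43% of probes were, although its further probe, at 0.57 over empty vector, did not pass, and FOS was lower upon NOC silencing, where 3.91% of probes were. The shares of probes in the other directions were 0.592% higher and 1.53% lower upon PARN, 1.25% lower upon CNOT6, 1.87% higher and 2.95% lower upon CNOT6L, 1.69% higher and 3.85% lower upon CNOT7, and 2.15% higher upon NOC silencing. No other of the 50 combinations of gene and shRNA reached 1.5-fold against both controls. Against both other arrays of slide row 2, the CNOT6L, CNOT7 and NOC arrays had 0 of the 10 genes past 1.5-fold, where 3.28%, 0.764% and 0.75% of probes were higher and 1.17%, 0.564% and 1.04% lower.

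Counted by any amount, among probes above background on all arrays, PARN shRNA was beyond both controls for 5 genes upwards (FOSB, FOSL1, EGR1, IER2 and IER3; 25.4% of probes) and 3 downwards (FOS, JUN and MYC; 27.6%). CNOT6 shRNA was above both controls for 6 genes, against 42% of probes, and below for JUND and MYC, against 22.4%. CNOT6L shRNA was above for EGR1 and MYC, against 30.2%, and below for 6 genes, against 33%. CNOT7 shRNA was above for MYC alone, against 25.8%, and below for 7 genes, against 39.3%, and NOC shRNA was above for 0, against 27.7%, and below for 7, against 37.8%. In the same order of shRNAs the median change of the 10 genes from the control mean was 0.06, 0.26, -0.29, -0.37 and -0.22, and that of all probes 0.00, 0.11, -0.02, -0.08 and -0.06. CNOT6 shRNA thus had a median above that of all probes and the 3 shRNAs of row 2 had medians below it. For PARN shRNA the order depended on the background correction, with a median of 0.04 for the 10 genes and 0.06 for all probes with normexp, and it was 0.01 with quantile normalization. The comparisons share the control arrays. Without scaling between arrays 27 of the 50 changes took the opposite sign, because the arrays then keep their overall brightness. All probes then shifted by -0.33, -1.01, 0.40, 0.54 and 0.22.

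**Figure D2:**
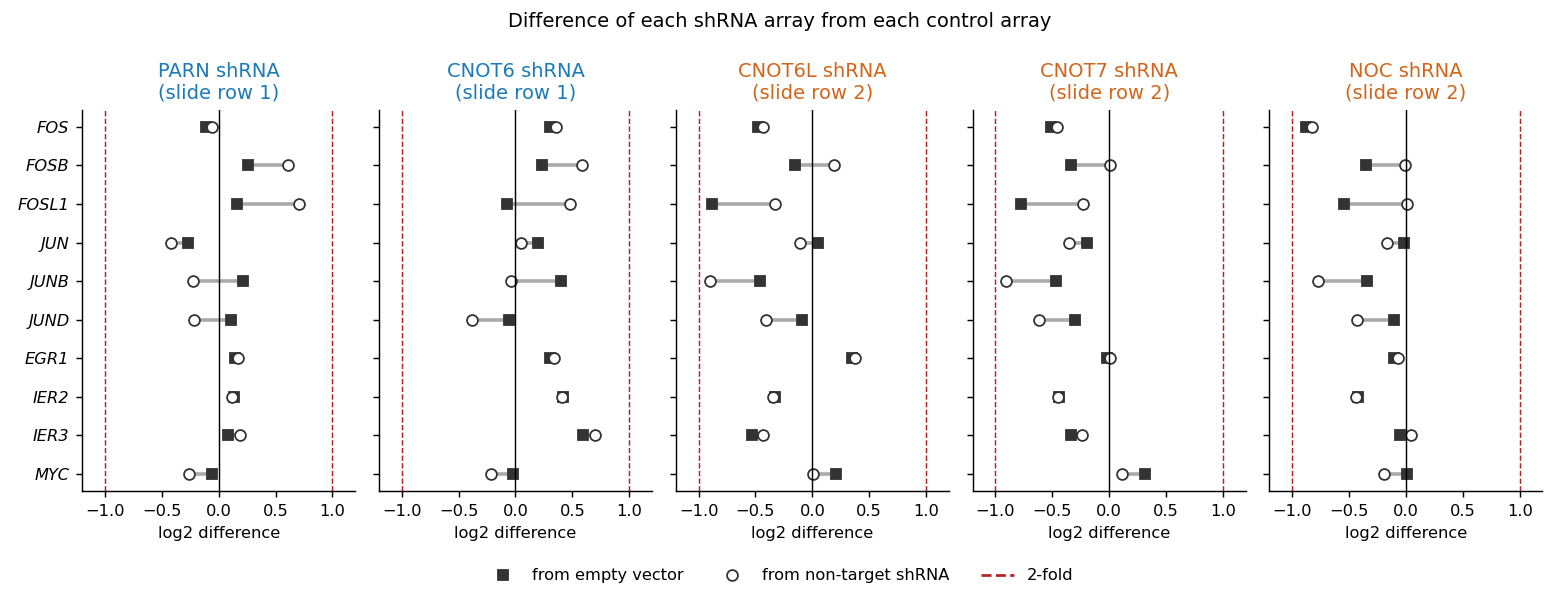
Log2 differences of each shRNA array from the empty-vector array (squares) and from the non-target array (circles) for the 10 genes, with dashed lines at 2-fold. No gene lies beyond 2-fold from either control. Taking for each gene the control it lies nearer to, FOS upon NOC silencing lies farthest to the left, at -0.82, and IER3 upon CNOT6 silencing farthest to the right, at 0.60.

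The arrays of all 5 shRNAs were compared with both controls by limma, so that the spread is the one among different shRNAs and among the control plasmids. None of the 10 genes was called, with 0 at an unadjusted p under 0.05, and of 38091 probes 0 were called (0% higher and 0% lower) and 1406 had an unadjusted p under 0.05. The smallest unadjusted p was that of JUND, 0.147, with a difference of -0.25 ± 0.16 (SE), and its value was below both controls on 4 of the 5 shRNA arrays. With the slide row added to the model 0 probes were called for the shRNA term. FOSB then had a difference of 0.42 ± 0.17 (SE), with an unadjusted p of 0.036 and an adjusted p of 0.923 by limma.

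The comparison of slide rows was added after seeing the data. Slide row 2 lay wholly below row 1 for 4 of the 10 genes (FOS, JUNB, JUND and IER2) and wholly above it for 0. The shares of probes above background on all arrays were 16.5% and 9.44%. Without scaling row 2 was wholly below row 1 for 0 of the 10 genes, against 0.308% of these probes. The mean of row 2 minus that of row 1 was -0.66 for FOS, -0.68 for JUNB, -0.25 for JUND and -0.54 for IER2. FOSL1, IER3 and FOSB had differences of -0.62, -0.45 and -0.32 but overlapped, and without the non-target array all 3 no longer did. IER3 rests on the probe here: the rows of its further probe did not overlap, with -0.27 to 0.42 in row 1 and -0.72 to -0.40 in row 2. JUN, EGR1 and MYC had differences of -0.08, -0.03 and 0.15, with overlap. Over the 10 genes the median was -0.39, and over all probes it was -0.09.

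The row term of the same limma model sets the 3 shRNA arrays of row 2 against the 2 of row 1. It called 1.19% of probes higher and 2.42% lower in row 2. These 1375 calls fell to 41, 45 and 55 without the CNOT6L, CNOT7 and NOC array. Leaving out a control changes the spread of this model but not the row estimate, so it does not check these calls. IER2 fell by 0.68 ± 0.11 (SE), with an adjusted p of 0.025, and was the only one of the 10 genes called. JUNB differed by -0.73 ± 0.16 (adjusted p = 0.051 by limma), FOS by -0.72 ± 0.16 (0.055) and FOSL1 by -0.78 ± 0.22 (0.092), none of them called. MYC differed by 0.22 ± 0.12 and JUN by -0.02 ± 0.15, neither of them called. The IER2 call was lost without the CNOT6, CNOT6L, CNOT7 or NOC array, with adjusted p of 0.066, 0.114, 0.116 and 0.097, and kept without PARN shRNA, at 0.038. FOS was called as well with quantile normalization, and FOS, FOSB, FOSL1, JUNB and IER3 beside IER2 with normexp background correction, where 13532 probes were called. The 75th percentiles of signal were 3194 to 3986 in row 2 and 1366 to 3251 in row 1, where empty vector alone exceeded the NOC array, and the part of brightness, of the row and of each shRNA in these differences was not tested.

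**Figure D3:**
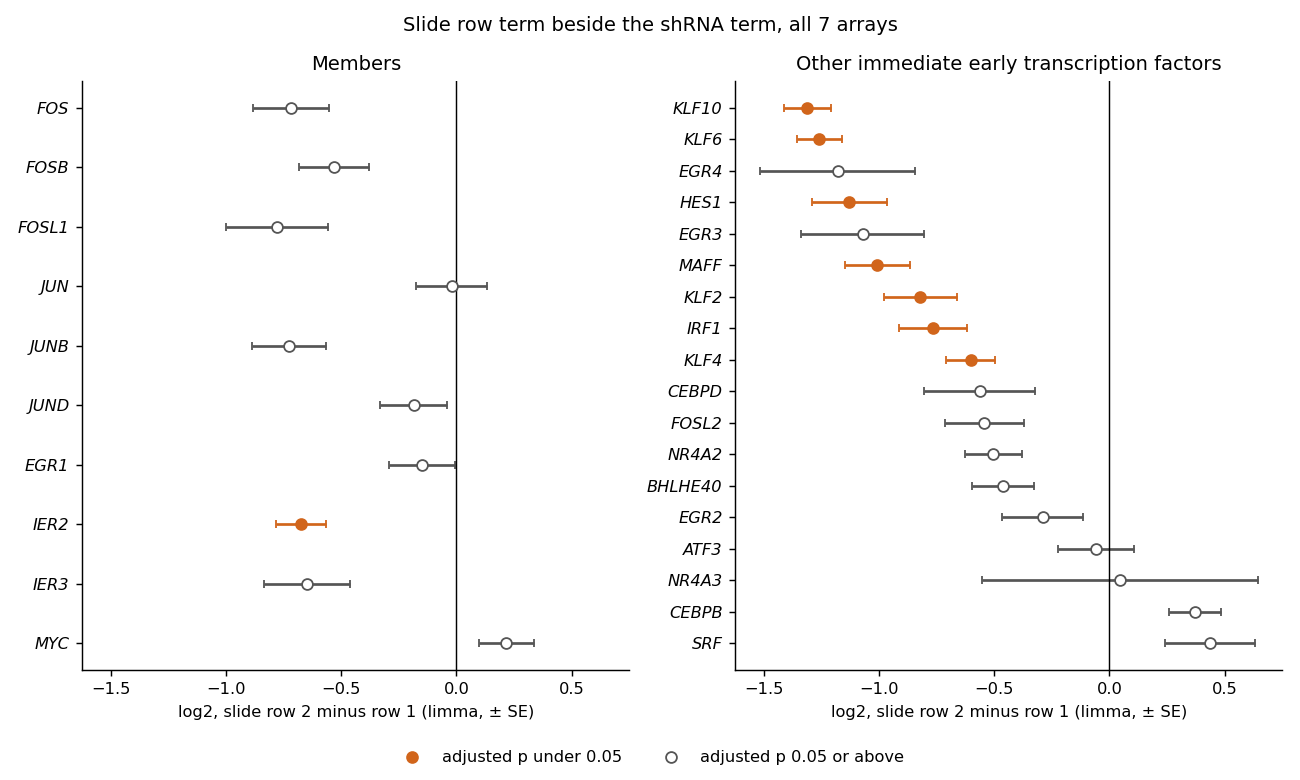
Differences of slide row 2 from row 1 by limma, in log2, with bars of 1 SE, for the 10 genes (left) and for other immediate early transcription factors (right). Filled points have an adjusted p under 0.05: IER2 on the left, and KLF10, KLF6, HES1, MAFF, KLF2, IRF1 and KLF4 on the right.

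Other immediate early genes were read from lists of transcription factors and of genes of other kinds, and list genes named here and for the MYC network that did not pass 2-fold were picked out after their values were seen. The lists were drawn up with earlier results of these data known. There were 17 further immediate early transcription factors above background on all arrays. Row 2 was wholly below row 1 for 13 of them and wholly above it for CEBPB alone. The shares of probes above background on all arrays were 16.5% and 9.44%. The median difference of the list was -0.60, and limma called 7 of its genes lower, against 2.42% of probes. KLF10, a Krüppel-like factor induced by TGF-β, had values of up to 3.15 in row 1 and of 1.70 to 1.88 in row 2. It fell by 1.31 ± 0.10 (SE; adjusted p = 0.0039 by limma), and passed 2-fold against both controls upon CNOT6L, CNOT7 and NOC silencing. KLF6, of the same family, had values of 2.73 to 3.10 in row 1 and 1.73 to 1.79 in row 2, and fell by 1.26 ± 0.10 (SE; adjusted p = 0.0039 by limma). Both kept their call without the CNOT6L, CNOT7 or NOC array, where the number of called factors of this list dropped from 7 to 2.

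MAFF, a small MAF protein, passed 2-fold upon CNOT6L silencing, by -1.05 and -1.37 against the controls, and EGR3 upon NOC silencing, by -1.36 and -1.06. MAFF fell by 1.01 ± 0.14 between the rows (adjusted p = 0.018 by limma), and EGR3 differed by -1.07 ± 0.27 (0.068), not called. Of 19 immediate early genes of other kinds, row 2 was wholly below row 1 for 13 and wholly above for 0. The shares of probes were 16.5% and 9.44%, and the median of the list was -0.49. The genes called lower were the MAP kinase phosphatases DUSP1 and DUSP4, the stress gene GADD45B and the pseudokinase gene TRIB1. The kinase genes PIM1 and PLK3 were also called lower, against 2.42% of all probes. These 6 became 0 without the CNOT6L, CNOT7 or NOC array. ATF3, BTG2 and MCL1, also short-lived, had row means within 0.07 of each other.

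The factors that act upstream of these genes were read as well, 14 kinases of the MAP kinase cascade and factors that bind early promoters. Row 2 was wholly below row 1 for 0 of them and wholly above it for 2, MAP2K1 and MAP2K2. The shares of probes were 16.5% and 9.44%. The median of the list was 0.10. The row term called 0 of these genes, where it called 2.42% of probes lower and 1.19% higher. AP-1 target genes above background on all arrays had a median of -0.30 over 11 genes. Of these, 3 were wholly below (MMP1, MMP9 and VEGFA) and 0 wholly above, against 16.5% and 9.44% of probes. The row term called 2 of the 11 lower, MMP9 and VEGFA but not MMP1, and 0 higher, against 2.42% and 1.19% of probes. MMP1, the interstitial collagenase, passed 2-fold upon CNOT7 silencing, by -1.26 and -1.17 against the controls, and upon NOC silencing, by -1.31 and -1.22. Within row 2 MMP1 had values of -4.41 upon CNOT6L, -5.22 upon CNOT7 and -5.26 upon NOC silencing, so the CNOT7 and NOC values lay close together.

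Relative to all probes, the median row difference of the 10 genes was -0.30, that of the other early transcription factors -0.51 and that of early genes of other kinds -0.40. The same values hold without scaling, since scaling moves all probes of an array together, but the unscaled median of the 10 genes was 0.33, with all probes at 0.63. With quantile normalization the relative medians were -0.33, -0.59 and -0.50, and with normexp -0.19, -0.40 and -0.27.

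**Figure D4:**
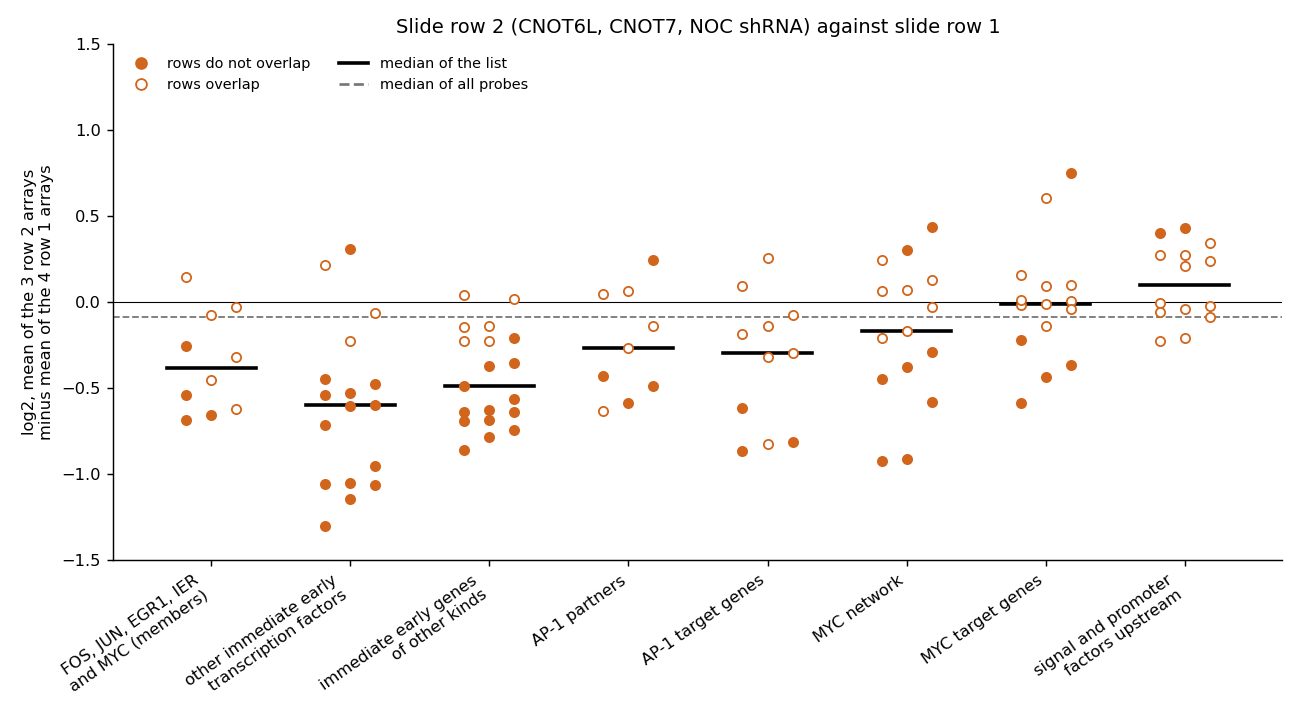
Each point is a gene above background on all arrays, and the vertical axis is the mean of the 3 row 2 arrays minus that of the 4 row 1 arrays, in log2. Filled points are genes whose rows do not overlap, black bars are list medians and the dashed line is the median of all probes. The medians of the 3 lists of early genes lie lowest, at -0.39, -0.60 and -0.49, and that of the upstream factors lies highest, at 0.10.

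The MYC network and MYC target genes were read beside MYC itself. Of 15 network genes, row 2 was wholly below row 1 for 6 and wholly above it for MYCBP and FBXW7. The shares of probes were 16.5% and 9.44%. Over all probes the limma row term called 2.42% lower and 1.19% higher. MYCN and MYCL, the paralogues of MYC, were called lower, as was ZBTB17, which encodes the MYC partner MIZ1, while MYCBP was called higher. Of these 4 calls only MYCL was left without the CNOT6 array, and 0 without any other single shRNA array. MYCL had values of 2.13, 1.94, 2.33 and 2.12 on the empty-vector, non-target, PARN and CNOT6 arrays and of 1.16, 1.16 and 1.34 on the CNOT6L, CNOT7 and NOC arrays. MAX, the obligate partner of MYC, stayed between 2.60 and 2.74 on all arrays. Of 15 MYC target genes, among them genes of ribosome and nucleotide synthesis, only RRS1 passed 2-fold, upon CNOT6L silencing, at 4.16 against 1.52 to 1.89 on the other 6 arrays, and its probe was printed on 1 spot. The median change of the MYC targets from the control mean lay between -0.06 and 0.14 over the 5 shRNAs, close to the medians of all probes, -0.08 to 0.11.

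Across the 7 arrays, the genes whose values went most closely with FOSL1, the most variable of the 10, were POTED (Pearson r = 0.998), POTEB3 (0.997) and TUT1 (0.996), out of 16481 genes searched. The 7 points share a slide, and a high r is easily reached by some gene when so many are searched over so few arrays.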

How the data were processed

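Per the file headers, the scanner files were made with Feature Extraction 10.7.3.1 and give the intensity of each spot. The authors' deposited series table gives log2 values of the same arrays, shifted per array and centred per probe, so that it holds differences and not levels, and was used as an alternative. For each array, the 75th percentile over all gene spots, outlier spots included, was subtracted from log2 processed signals. For the probe values, outlier and control spots were left out and spots of 1 probe averaged. Symbols came from RefSeq accessions. Each gene was read from its brightest probe, and with 1 array per group the number of arrays limits the precision. A gene was called when both controls were at least 2-fold away on the same side. In addition limma 3.58.1 in R 4.3.3 (lmFit, eBayes with trend, two-sided, Benjamini-Hochberg at 0.05) was run on probes that 2 or more arrays showed above background, and was tested on simulated data. By rule, the genes named were all 10 members, up to 3 per list past 2-fold, the targeted genes and the 3 genes most like the most variable member. Other genes of the lists were named after their values were seen. The members and lists were chosen with earlier results of these data known, and the comparison of slide rows was added after seeing the data. Alternatives were other scalings, normexp correction with an offset of 50 (from median signals), the series table, outlier spots kept, the mean over probes, 1.5-fold and leaving out each array.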

Additional observations from a re-analysis of the deposited data

How the results depend on the processing

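No paired analysis was possible because each group has 1 array and the groups share a single replicate number. Of the 50 changes of a gene from the control mean, the sign turned for 2 with quantile normalization, 1 with normexp, 3 with the series table, 2 with the percentile taken over probes above background on all arrays, 0 with outlier spots kept and 0 with the mean over probes, 27 without scaling, 5 when empty vector and 6 when the non-target array was left out. The cause was not tested except for scaling, which shifts all probes of an array together.

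The median change of the 10 genes moved without scaling, to -0.27 upon PARN, -0.74 upon CNOT6, 0.11 upon CNOT6L, 0.17 upon CNOT7 and -0.0032 upon NOC silencing. With quantile normalization it was 0.14 upon CNOT6, -0.33 upon CNOT7 and -0.18 upon NOC silencing, and with the series table -0.31 upon CNOT7 and -0.19 upon NOC silencing. Upon CNOT7 silencing it was also -0.33 with the percentile over probes above background on all arrays, -0.31 with normexp and -0.42 with the mean over probes. With a control left out it ranged from 0.27 to 0.34 upon CNOT6, -0.34 to -0.29 upon CNOT7 and -0.22 to -0.18 upon NOC silencing.

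The number of genes at least 2-fold from both controls rose from 0 to 1 upon CNOT6 silencing without scaling (JUND), and at 1.5-fold to 1 upon CNOT6 (IER3) and 1 upon NOC silencing (FOS). In the comparison of the 5 shRNAs with the controls, limma called between 0 and 56 probes with an array left out: 56 without the empty-vector array, 10 without the non-target array and 0 without any of the shRNA arrays, with 0 of the 10 genes in each case. Between slide rows limma called 1 of the 10 genes, where 1375 of 38091 probes were called. It called 2 with quantile normalization, where 1372 probes were, and 6 with normexp, where 13532 were. Without CNOT6L, CNOT7 or NOC shRNA it called 0, where 41, 45 and 55 probes were. Leaving out a control, PARN shRNA or CNOT6 shRNA leaves 1 array in a group of this model. The number of genes with row 2 wholly below row 1 was 4, against 16.5% of probes, and 0 without scaling, against 0.308%. It was 4 with quantile normalization (12.3% of probes), 3 with the series table (13.3%) and 5 with normexp (28.6%). With the percentile over probes above background on all arrays it was 4 (14.9%). With an array left out it was 4 to 7 (7 without the non-target array). The row comparisons were added after seeing the data.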
